A study of Mus musculus with 12 samples.

Results

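The proteasome genes expressed in mouse female germ cells were examined, taken as every listed gene symbol that starts with Psma, Psmb, Psmc, Psmd, Psme, Psmf or Psmg followed by a digit. The rule found 45 of the 12516 gene symbols in the table, and all 45 were among the 12432 genes tested. It used no measured value. One of the 45, Psmc3ip, is caught by its symbol only: it encodes a partner of the meiotic recombinases and is not part of the proteasome. The immunoproteasome subunits Psmb8, Psmb9 and Psmb10 and the thymus subunit Psmb11 were not analysed here.

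RNA was sequenced from Oct4-positive germ cells sorted from single female embryos at embryonic day 13.5, with 1 library per embryo. The supplied controls and the withdrawn embryos had the same genotype, Gulo-/-, and the same C57BL/6 background. Mice lacking Gulo cannot complete the synthesis of vitamin C, so their supply comes from the diet. For 6 embryos, vitamin C was given at physiological levels, and for the other 6 it was withdrawn during gestation. Which embryos share a mother is not given in the sources used here.

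The proteasome degrades proteins tagged with ubiquitin. Its barrel-shaped 20S core has outer rings of alpha subunits, which gate the entrance, and inner rings of beta subunits, some of which cut peptide bonds. A 19S cap recognises ubiquitin, removes it, unfolds the substrate with a ring of ATPases and feeds it into the core. Other caps open the core without ubiquitin, and dedicated chaperones assemble the particle. Germ cells can exchange an alpha subunit of the core for the paralogue Psma8, which is known for its role in meiosis.

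Values are the authors' normalized log2 expression per gene and embryo. The read depth of each library is unknown, so no counting error is given. The log2 fold change is the mean of the withdrawn embryos minus that of the supplied ones, with a moderated standard error (SE). It was tested with limma over all genes, and "adjusted p" is the Benjamini-Hochberg value of that two-sided test, with calls at an adjusted p below 0.05. Of 8 germ cell markers, Nanos3 was low (means of 5.62 in supplied and 5.77 in withdrawn embryos) and the other 7 lay above the table's median gene. Pou5f1, which encodes the Oct4 of the sort, was called higher in withdrawn embryos (12.55 and 12.999), as were 3 others, while Ddx4 (13.05 and 12.71) and Dazl (13.20 and 12.77) were called lower. The part of these marker shifts in the results on proteasome genes was not tested. Of 25 markers of other gonadal cells, 19 were listed and all 19 had a mean below the table's median gene, which lies at 8.11. The mean of these 19 markers was 4.97 to 5.23 in supplied and 4.94 to 5.06 in withdrawn embryos, and their summed level on the linear scale was 739 to 911 and 724 to 807. No value is 0 on this scale: the lowest in the table is 2.82, and the marker Ptprc, of blood cells, had means of 3.33 and 3.30.

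Most proteasome genes had slightly higher mean values in germ cells of withdrawn embryos, and the differences were small. The test called 10 of the 45 genes higher, or 22.2%, where it called 6.22% of all genes higher. These were the core subunits Psma1, Psma4 and Psma5, the ATPases Psmc1, Psmc4 and Psmc5, the lid subunits Psmd7 and Psmd8, and the activator subunits Psme1 and Psme2. Only Psma8, the germline alpha subunit, was called lower, which is 2.22% of the 45 against 7.75% of all genes. The fold change was positive for 39 of the 45 and for 46.6% of all genes. Its median was 0.12 over the 45 and -0.01 over all genes tested.

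The range ran from -0.24 for Psma8 to 0.33 for Psme2, so the largest difference was a rise of 25.5% on the linear scale. At an unadjusted p below 0.05, 19 of the 45 were higher, against 13.5% of all genes, and 2 were lower, against 16.7%. The groups did not overlap for 3 of the 45, Psme2, Psmd1 and Psmd11, each with all withdrawn embryos above all supplied ones, which is 6.67% against 2.15% of all genes. For 0 of the 45 did all withdrawn embryos lie below, against 2.34% of all genes. In sorted bulk cells, a change in the mix of cells and a change in RNA per cell cannot be told apart. Of 18 tested markers of other gonadal cells, 1 had a positive fold change and 0 were called by limma. With their mean as a covariate, 0 of the 45 proteasome genes and 50 of all genes were called by limma. The median over the 45 was then 0.09. At an unadjusted p below 0.05 there were 15 of the 45 in that fit, against 21 in the reported one. The share of all genes at that cut was not taken with the covariate, so the 15 have no general rate beside them.

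**Figure D1:**
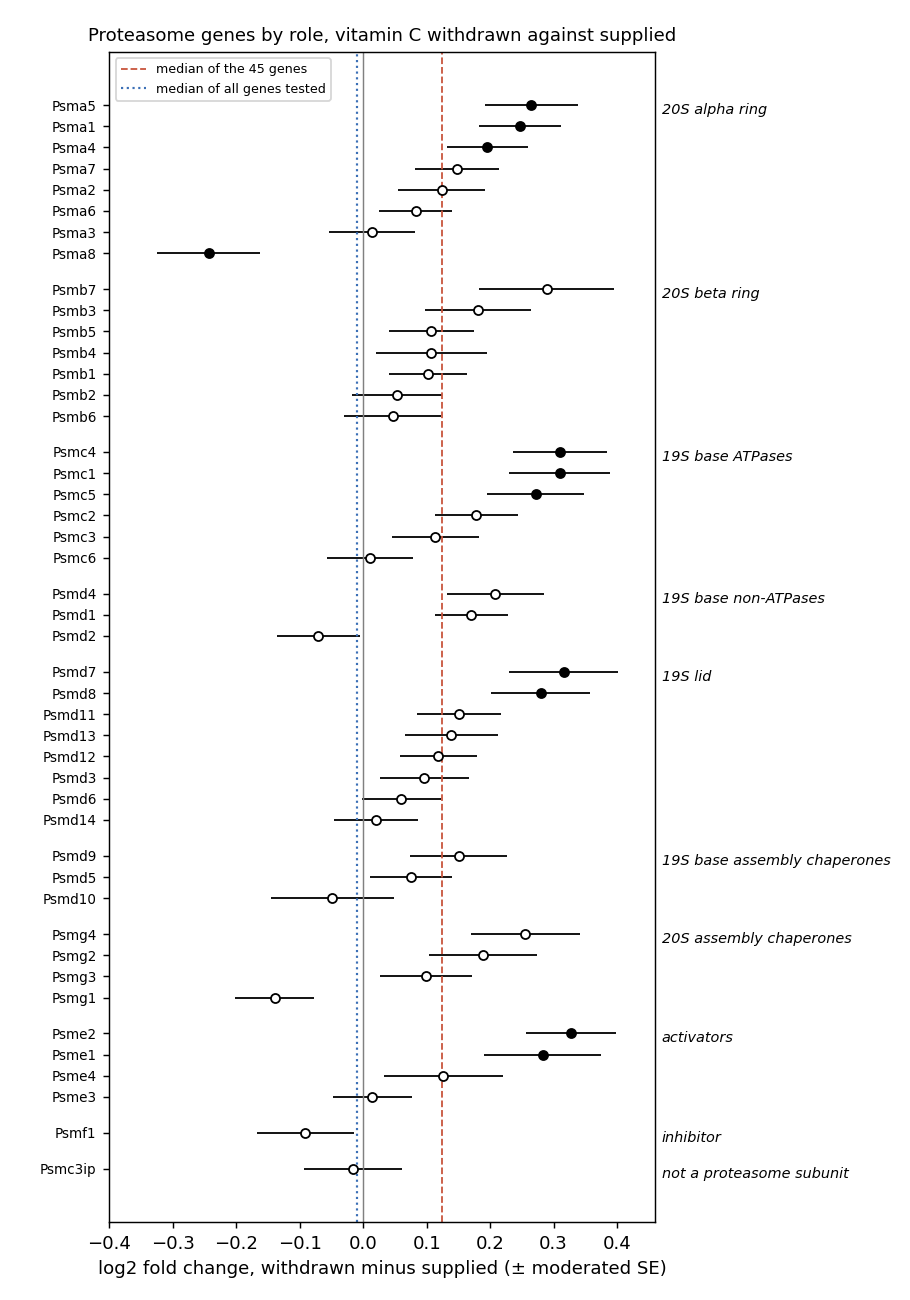
Log2 fold change (withdrawn minus supplied) with its moderated SE for the 45 genes, in blocks by role; filled points passed the test and open points did not. The dashed line is the median of the 45 genes (0.12) and the dotted line that of all genes tested (-0.01); Psma8 stands alone among the filled points on the left.

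The alpha ring was represented by 8 genes, of which 3 were higher and 1 lower. Psma1 ranged from 10.06 to 10.13 in supplied embryos (median 10.10) and from 10.12 to 10.46 in withdrawn ones (median 10.38). Supplied embryos lay very close together, and 5 of the 6 withdrawn embryos were above all of them. The log2 fold change was 0.25 (SE 0.06, adjusted p = 0.0160), a rise of 18.6%. Psma5 ranged from 8.30 to 8.55 (median 8.38) in supplied and from 8.48 to 8.88 (median 8.61) in withdrawn embryos, with a difference of 0.26 on the log2 scale (SE 0.07, adjusted p = 0.0205). Again 5 withdrawn embryos exceeded the supplied range. RefSeq names a pseudogene, Psma5-ps, so its counts are uncertain to that extent.

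Psma4 ranged from 11.02 to 11.26 (median 11.15) in supplied and from 11.19 to 11.47 (median 11.33) in withdrawn embryos, a difference of 0.20 on the log2 scale (SE 0.06, adjusted p = 0.0447). Its groups overlapped, with 4 withdrawn embryos above the supplied range, and the call was lost in 19 of 28 alternative settings. The remaining standard alpha genes, Psma2, Psma3, Psma6 and Psma7, had fold changes from 0.01 to 0.15 and did not pass.

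Psma8 moved the other way. It ranged from 8.14 to 8.58 (median 8.31) in supplied and from 7.89 to 8.31 (median 8.06) in withdrawn embryos, with a difference of -0.24 on the log2 scale (SE 0.08, adjusted p = 0.0477), a percent change of -15.5%. Of the 6 withdrawn embryos, 4 lay below all supplied ones. Its call was lost in 19 of 28 alternatives, with adjusted p values up to 0.336. Per kilobase of transcript, its mean level over the 12 embryos was 7.44 on the log2 scale, and that of Psma7, the standard subunit in its place, was 10.89.

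The beta ring had 7 genes, and limma called 0 of them, although all 7 fold changes were positive. At an unadjusted p below 0.05 there were 2, Psmb3 and Psmb7. The exact test per gene called 0, and after adjustment over all genes it called only genes whose groups did not overlap. The catalytic subunits gave the following values. Psmb5, which cuts after bulky hydrophobic residues, ranged from 8.73 to 9.04 (median 8.87) in supplied and from 8.86 to 9.05 (median 8.99) in withdrawn embryos, a difference of 0.11 on the log2 scale (95% interval -0.03 to 0.25, adjusted p = 0.294). Psmb6, which cuts after acidic residues, ranged from 10.63 to 11.03 (median 10.96) and from 10.74 to 11.08 (median 10.95), a difference of 0.05 on the log2 scale (95% interval -0.11 to 0.20, adjusted p = 0.727). For both, 1 withdrawn embryo lay above the supplied range.

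Psmb7, which cuts after basic residues, ranged from 9.59 to 10.07 (median 9.99) in supplied and from 9.89 to 10.72 (median 10.14) in withdrawn embryos. Its log2 fold change was 0.29 with an SE of 0.11, and it did not pass (95% interval 0.07 to 0.51, adjusted p = 0.0719). Withdrawn replicate 5 held the value of 10.72, and without it the difference was 0.19 (adjusted p = 0.160). Psmb7 was called without withdrawn replicate 3 (0.35, adjusted p = 0.0281) and with the title number as a replicate block (adjusted p = 0.0279). RefSeq names pseudogenes for all 3 catalytic genes, so their counts are uncertain in the same way. The noncatalytic Psmb1, Psmb2, Psmb3 and Psmb4 had fold changes from 0.05 to 0.18.

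The sequence before the start of 3 genes is shown because they hold or lack the letters of a control element described for proteasome genes: Psmb5 and Psmb6, uncalled catalytic subunits, and Psme2, the gene with the largest positive fold change. Each is the 250 bases before a RefSeq start in build GRCm38.p6, 5′ to 3′ on the gene's strand, at chr14:54617996-54618245 (minus strand) for Psmb5, chr11:70525107-70525356 (plus strand) for Psmb6 and chr14:55591102-55591351 (minus strand) for Psme2. Capitals mark matches to TGACNNNGC, the antioxidant response element bound by Nfe2l1 and Nfe2l2 with small Maf proteins, or to CCAAT, the box bound by NF-Y, searched on both strands.
Psmb5: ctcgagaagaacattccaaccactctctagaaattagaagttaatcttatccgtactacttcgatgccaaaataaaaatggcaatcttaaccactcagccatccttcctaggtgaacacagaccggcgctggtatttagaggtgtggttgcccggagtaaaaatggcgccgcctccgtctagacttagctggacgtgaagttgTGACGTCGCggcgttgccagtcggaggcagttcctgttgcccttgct
Psmb6: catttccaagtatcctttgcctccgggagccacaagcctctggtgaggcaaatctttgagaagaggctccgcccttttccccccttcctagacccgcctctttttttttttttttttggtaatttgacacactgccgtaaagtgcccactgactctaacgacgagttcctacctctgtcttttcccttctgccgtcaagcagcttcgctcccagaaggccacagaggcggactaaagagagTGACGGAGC
Psme2: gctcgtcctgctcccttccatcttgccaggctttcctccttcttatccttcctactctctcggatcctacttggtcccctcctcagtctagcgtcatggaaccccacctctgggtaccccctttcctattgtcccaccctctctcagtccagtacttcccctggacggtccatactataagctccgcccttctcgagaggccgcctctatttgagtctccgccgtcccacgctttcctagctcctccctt
Psmb5 holds TGACGTCGC, 47 to 39 bases before its start, and Psmb6 holds TGACGGAGC, 9 to 1 bases before its start. The window of Psme2 holds neither set of letters. RefSeq windows were matched for 37 of the 45 genes. TGACNNNGC was found for 5 of these (Psmb5, Psmb6, Psmc6, Psmd9 and Psmd12), or 13.5%, and in 10.2% of all 32851 windows of the same length. CCAAT was found for 13 of 37, or 35.1%, and in 33.8% of all windows. The units differ: the 37 genes have 40 windows and count if any of theirs matches, whereas the background is counted by window. Small gaps between these shares are therefore not read as a difference. Of the 9 called genes with a window, 0 held TGACNNNGC and 2 held CCAAT, Psma1 and Psmc1. A match says only that these letters are there.

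The ATPase ring of the 19S base had 3 of its 6 genes higher. Psmc4 ranged from 9.95 to 10.42 (median 10.21) in supplied and from 10.41 to 10.57 (median 10.50) in withdrawn embryos. The groups touched only at 1 supplied embryo, and withdrawn embryos lay closer together than supplied ones. The log2 fold change was 0.31 (SE 0.07, adjusted p = 0.00976), a rise of 24.0%. Psmc1 ranged from 10.62 to 10.99 (median 10.74) and from 10.90 to 11.29 (median 11.06), a difference of 0.31 on the log2 scale (SE 0.08, adjusted p = 0.0145). Psmc5 ranged from 9.80 to 10.11 (median 10.05) and from 9.99 to 10.43 (median 10.32), a difference of 0.27 on the log2 scale (SE 0.08, adjusted p = 0.0219). In the last, 5 withdrawn embryos lay above all supplied ones and the sixth within them. Psmc2 (0.18, adjusted p = 0.0706), Psmc3 (0.11) and Psmc6 (0.01) did not pass.

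The base also holds scaffold subunits and a ubiquitin receptor. Psmd1, a scaffold, ranged from 11.80 to 12.01 (median 11.89) in supplied and from 12.02 to 12.15 (median 12.05) in withdrawn embryos. Its groups did not overlap, yet with a difference of 0.17 on the log2 scale (SE 0.06) it missed the limma threshold (adjusted p = 0.0502). The receptor Psmd4 was at 0.21 (adjusted p = 0.0714) and the other scaffold, Psmd2, at -0.07 (95% interval -0.21 to 0.06).

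In the lid, whose 8 members here were all positive, Psmd7 and Psmd8 were higher. Psmd7 forms a pair with Psmd14, the enzyme that removes ubiquitin from the substrate. Psmd7 ranged from 10.58 to 11.12 (median 10.86) in supplied and from 10.91 to 11.33 (median 11.21) in withdrawn embryos, a difference of 0.32 on the log2 scale (SE 0.09, adjusted p = 0.0191). Its partner Psmd14 ranged from 9.96 to 10.23 (median 10.12) and from 10.01 to 10.32 (median 10.11), a difference of 0.02 on the log2 scale (95% interval -0.12 to 0.16). The ranges of Psmd14 lay almost on top of each other, and those of Psmd7 overlapped in part.

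Psmd8, a late-joining lid subunit, ranged from 9.66 to 9.999 (median 9.80) in supplied and from 9.91 to 10.36 (median 10.09) in withdrawn embryos, a difference of 0.28 on the log2 scale (SE 0.08, adjusted p = 0.0211). Psmd11, which braces the lid against the core, had groups that did not overlap, at 9.56 to 9.69 (median 9.65) and 9.69 to 10.04 (median 9.76). It did not pass (log2 fold change 0.15, adjusted p = 0.129). The other lid genes, Psmd3, Psmd6, Psmd12 and Psmd13, lay between 0.06 and 0.14.

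Of the 7 assembly chaperones, limma called 0, and 3 (Psmg1, Psmg2 and Psmg4) had an unadjusted p below 0.05. The groups of each overlapped, so the exact test could call none. For the core, Psmg1 and Psmg2 work as a pair, and their values lay on opposite sides of 0, at -0.14 (adjusted p = 0.129) and 0.19 (adjusted p = 0.140). For Psmg1, 4 of the 6 withdrawn embryos lay below all supplied ones, as for Psma8. Its exact permutation p was 0.00649 (adjusted p = 0.0692), and that of Psma8 was 0.0195 (adjusted p = 0.110). Psmg4 ranged from 8.20 to 8.47 (median 8.44) in supplied and from 8.44 to 8.92 (median 8.54) in withdrawn embryos, 5 of which exceeded the supplied range, and was at 0.26 (SE 0.09, adjusted p = 0.0501). Psmg3 was at 0.10. For the base, Psmd5, Psmd9 and the X-linked Psmd10 were at 0.08, 0.15 and -0.05. Psmf1, an inhibitor of the core, was at -0.09 (95% interval -0.25 to 0.07).

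Of the 4 genes of alternative caps, both subunits of the mixed ring of Psme1 and Psme2 were higher. This cap is known from antigen processing, and both genes respond to interferon in other cells. Psme2 ranged from 8.42 to 8.64 (median 8.51) in supplied and from 8.67 to 9.05 (median 8.86) in withdrawn embryos, with no overlap. Its log2 fold change was 0.33 (SE 0.07, adjusted p = 0.00640), and it was called in 26 of 28 alternatives. RefSeq names a close copy, Psme2b, so its counts are uncertain to that extent.

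Psme1 ranged from 10.62 to 10.99 (median 10.71) in supplied and from 10.68 to 11.40 (median 10.9995) in withdrawn embryos. These groups overlapped, and the log2 fold change was 0.28 (SE 0.09, adjusted p = 0.0426), with the call lost in 18 of 28 alternatives. In RefSeq the genes lie on chromosome 14 with 1 gene, Emc9, between them. Psme3, whose product forms a nuclear ring of its own, was at 0.01 (95% interval -0.12 to 0.14). Psme4, whose product caps the core and is known for histone turnover in male germ cells, was at 0.13 (95% interval -0.07 to 0.32).

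**Figure D2:**
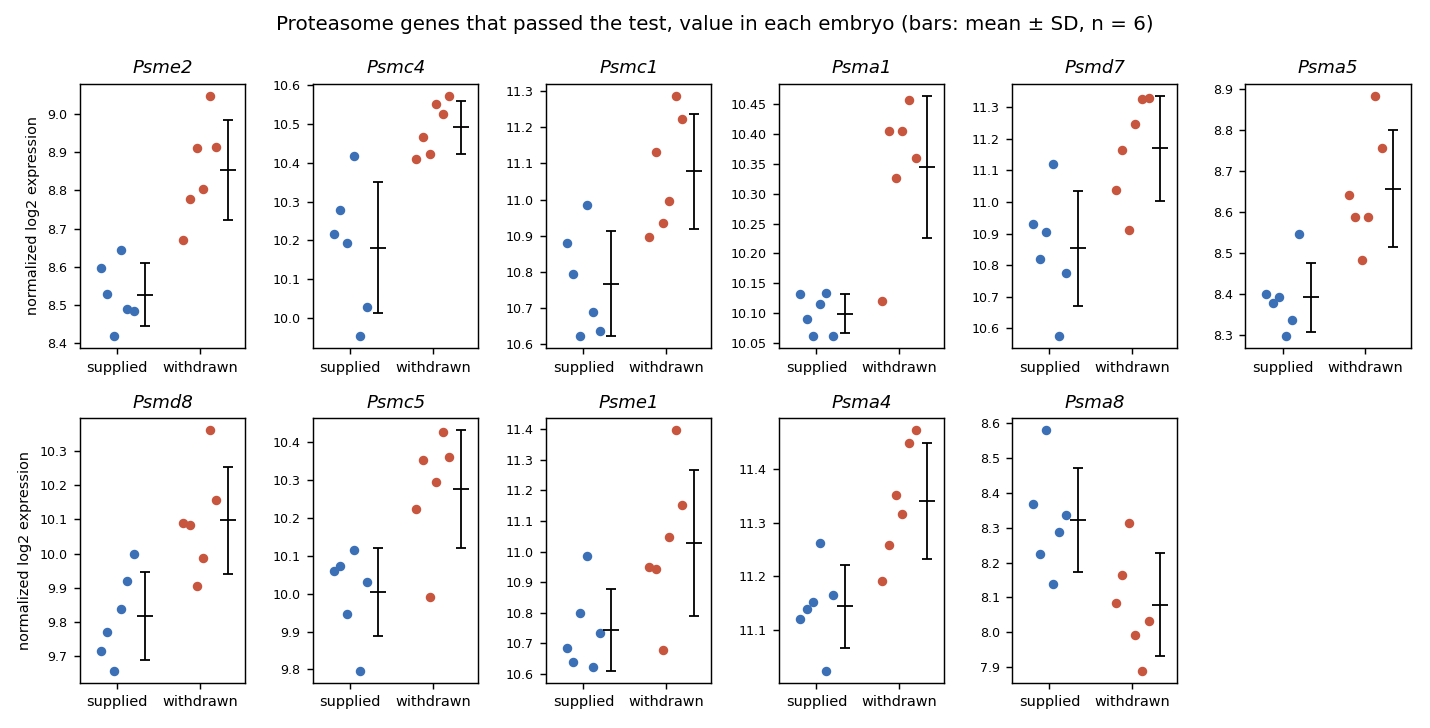
Normalized log2 expression of the 11 called genes in each embryo (blue supplied, red withdrawn), with mean ± SD of 6 embryos; each panel has its own axis range. Psme2 is the only panel in which the groups do not overlap, and Psma8 the only one in which withdrawn embryos are lower.

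Alternative subunits or caps were set against the standard or other form within each embryo, as the difference of their log2 values. Of 6 fixed pairs, 3 could be formed. Psma8 minus Psma7 ranged from -2.90 to -2.35 (median -2.75) in supplied and from -3.49 to -2.76 (median -3.05) in withdrawn embryos. All 6 withdrawn embryos were below the supplied mean of -2.70, and the groups overlapped at withdrawn replicate 3. The difference between the diets was -0.39 (exact two-sided permutation p = 0.00866, adjusted over the 3 pairs p = 0.0260). Psma7 itself ranged from 10.93 to 11.17 (median 11.01) and from 11.07 to 11.38 (median 11.14), a log2 fold change of 0.15 (adjusted p = 0.135). The adjusted p was 0.0520 without any 1 of supplied replicates 1, 3 and 5 and withdrawn replicates 1, 2, 4, 5 and 6. Without title number 4, which holds 4 embryos, the difference was -0.34 (exact permutation p = 0.0857, adjusted p = 0.257). With 4 embryos against 4 the smallest exact permutation p is 0.0286, or 0.0857 for a lone pair adjusted over the 3. This pair alone could therefore not have passed. Its exact permutation p before adjustment, 0.0857, also lay above the smallest value of 0.0286.

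Psme1 minus Psme4 averaged -0.51 ± 0.27 with supply and -0.35 ± 0.40 with withdrawal (SD, n = 6 each, exact permutation p = 0.435, adjusted p = 0.435). Psme2 minus Psme4 averaged -2.73 ± 0.16 and -2.53 ± 0.25 (exact permutation p = 0.130, adjusted p = 0.195). Neither difference passed, and in both the groups overlapped.

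**Figure D3:**
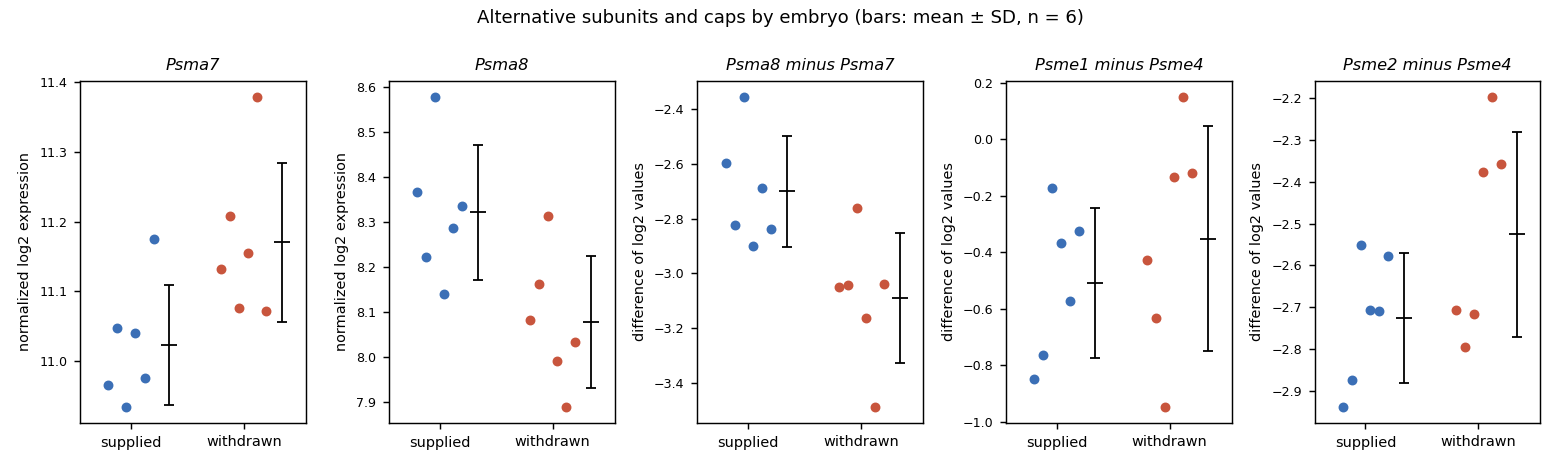
Psma7 and Psma8 (normalized log2 expression) and the 3 within-embryo differences of log2 values, by embryo (blue supplied, red withdrawn), with mean ± SD of 6 embryos. All 6 withdrawn embryos lie below the supplied mean of -2.70 for Psma8 minus Psma7, while the panels with Psme4 overlap widely.

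Embryos differed in how far the proteasome genes moved together. Over the 44 genes without Psmc3ip, the mean deviation from each gene's own mean was -0.11 to -0.02 in the 6 supplied embryos and -0.01 to 0.15 in the 6 withdrawn ones. The same mean over all genes stayed between -0.01 and 0.01. Normalization holds that mean near 0, so it does not show how unusual the shift of 44 genes is. Withdrawn replicate 5 had the highest deviation, 0.15, and held the highest value of all 12 embryos for 22 of 44 genes. It also held the lowest for 4, Psma8, Psmd2, Psmf1 and Psmg1. Without it, 8 genes were called higher, against 4.56% of all genes, and the median over the 45 was 0.11. Supplied replicate 5 had the lowest deviation, -0.11, and without it 5 genes were called higher, against 2.94% of all genes. These 5 were Psma1, Psmc1, Psmc4, Psmd8 and Psme2. Without withdrawn replicate 6, 6 genes were called higher, the same 5 and Psma5, against 4.31% of all genes. Of single embryos left out, only the omission of supplied replicate 4 or withdrawn replicate 3 left Psma8 called lower.

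**Figure D4:**
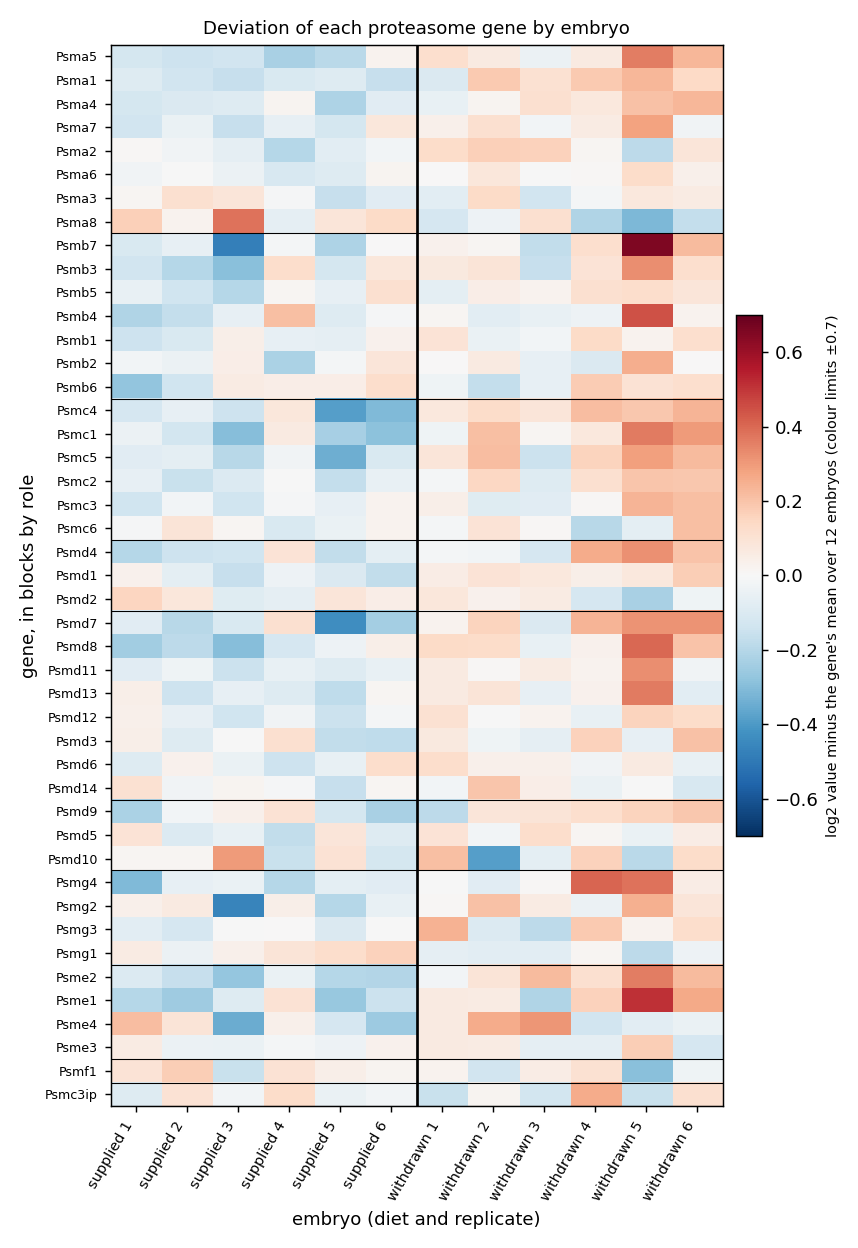
Log2 value of each of the 45 genes minus its mean over the 12 embryos (red above, blue below), with genes in blocks by role and a line between the diets. Withdrawn replicate 5 shows the strongest red, with the highest value for 22 of 44 genes, and Psma8 and Psmg1 run against the pattern.

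Both embryos that carry number 4 in their titles in each diet weighed heavily on the calls. Without these 4 embryos, 0 of the 45 genes and 49 of all genes were called by limma, and the median over the 45 was 0.11. At an unadjusted p below 0.05 there were 8 of the 45 in that fit, against 21 in the reported one. The share of all genes at that cut was not taken without these embryos, so the 8 have no general rate beside them. The fold changes of Psma1 (0.21), Psmd8 (0.27) and Psme2 (0.24) then had adjusted p values of 0.187, 0.0948 and 0.161. Among called genes, the largest shifts were in Psmd7 (from 0.32 to 0.15), Psme1 (from 0.28 to 0.13), Psmc1 (from 0.31 to 0.17), Psma4 (from 0.20 to 0.11), Psmc4 (from 0.31 to 0.19) and Psmc5 (from 0.27 to 0.17). Without title number 1, 4 genes were called higher, against 2.61% of all genes. All 11 called genes kept their direction in each of the 28 alternatives, some of which leave the fold changes as they are.

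The proteasome transcripts are short: their median length was 1541 bases against 3182 over all genes with a length, with a median GC content of 49.7% against 50.2%. With the trend on transcript length and GC content removed from each library, 9 of the 45 were higher and 2 lower, Psma8 and Psmg1, and 35 were positive. Of 12303 genes in that fit, 932 (7.58%) were called higher and 808 lower. The median over the 45 was then 0.10, and that over all genes -0.003.

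Of 34 tested genes that act with the proteasome, 2 were higher and 1 lower, and the median fold change was 0.03. Of all genes, 6.22% were called higher and 7.75% lower, so these counts do not exceed the general rate. Among subunits and assembly factors outside the symbol rule, AI314180, also called Ecpas, which binds core and cap together, was at 11.49 ± 0.17 with supply and fell to 11.14 ± 0.32 with withdrawal (SD, n = 6, a difference of -0.35 on the log2 scale, adjusted p = 0.0426). It was called in 11 of 28 alternatives. The core maturation factor Pomp (0.22, adjusted p = 0.0595) and the small lid subunit Shfm1 (0.21, adjusted p = 0.0676) did not pass, nor did the ubiquitin receptor Adrm1 (0.05). Of the 5 proteasome-bound deubiquitinases, ligase and cofactors, 0 were called by limma and 0 had an unadjusted p below 0.05, with Usp14 at -0.10. Their groups overlapped, so the exact test could call none.

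Of 10 shuttle and extraction factors, Ubqln4, which carries ubiquitinated proteins to the proteasome, was at 10.13 ± 0.21 with supply and rose to 10.52 ± 0.15 with withdrawal (0.40 on the log2 scale, SE 0.09, adjusted p = 0.00783) and was called in 24 of 28 alternatives. Of the 6 ubiquitin and ubiquitin-activating genes, limma called 0, and the exact test could call none because the groups overlapped. By limma, 4 of the 6 had an unadjusted p below 0.05. Of these 4, Ubb (0.20), Rps27a (0.20) and Uba1 (0.16) were positive and Uba6 (-0.22) was negative. Among 9 genes of transcriptional control, Nfya, a subunit of the CCAAT-binding factor, was higher (0.27, SE 0.08, adjusted p = 0.0261) and was called in 16 of 28 alternatives. Nfe2l1, which raises proteasome genes when the proteasome is impaired and acts mainly by processing of its protein, went from 11.75 ± 0.05 to 11.77 ± 0.05 (log2 fold change 0.02, adjusted p = 0.862).

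Psmc3ip, the recombination factor caught by the symbol rule, ranged from 9.09 to 9.31 (median 9.16) in supplied and from 9.02 to 9.44 (median 9.13) in withdrawn embryos. The withdrawn range spans the supplied one, and the log2 fold change was -0.02 (95% interval -0.18 to 0.14, adjusted p = 0.909).

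**Figure D5:**
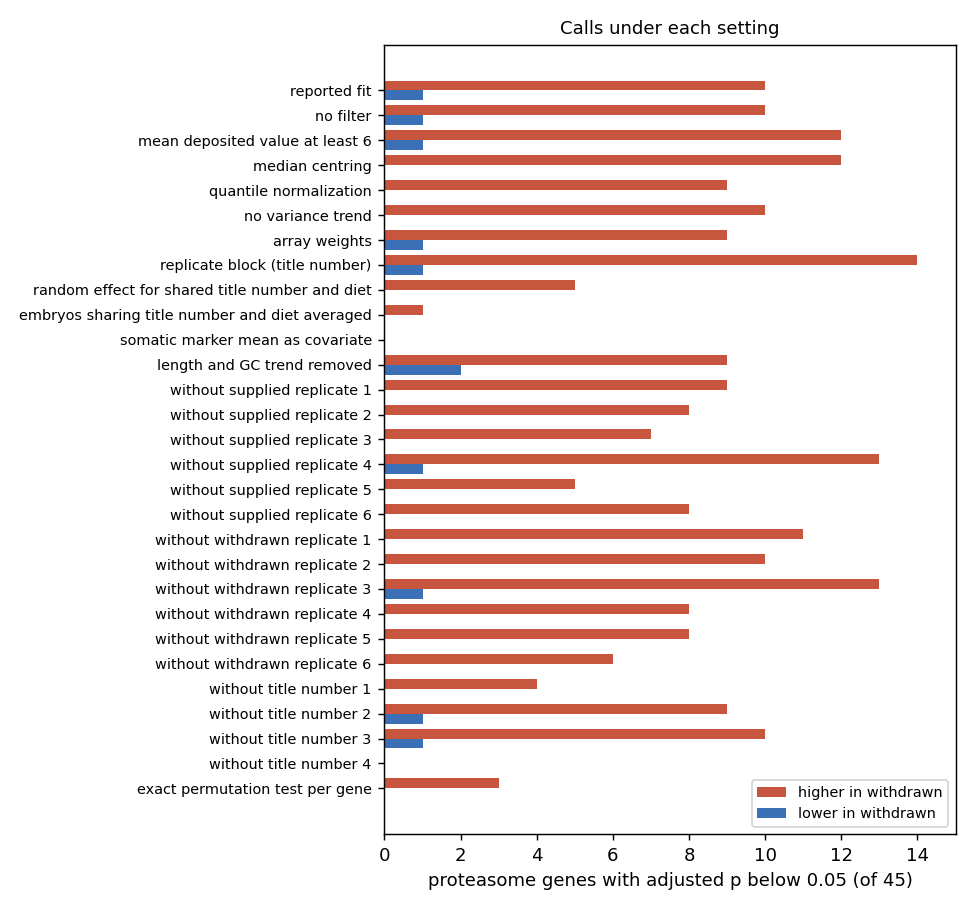
Number of the 45 genes called higher (red) or lower (blue) in withdrawn embryos in the reported fit and in each of 28 alternatives. The count of higher genes is 10 in the reported fit, reaches 14 with the replicate block, and is 0 with the somatic marker covariate and without title number 4.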

How the data were processed

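RNA of Oct4-sorted germ cells from 12 single embryos, 6 per diet, was sequenced. The authors deposited 1 table of normalized log2 expression values, 1 column per embryo. TopHat2 2.0.13, DESeq2 1.10.1, Trim Galore 0.4.0 and FastQC are named in the submitters' processing notes, with build mm9 and without their settings. How reads were counted and which log2 transformation was applied is not stated there. If the transformation shrinks poorly covered genes, their fold changes are understated.

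Genes with a mean value of at least log2 of 10 (3.32) were kept, 12432 in all, and fitted with limma 3.58.1 in R 4.3.3 with a variance trend. Embryos were treated as independent. If some share a mother, the p values may be too small. Single values were compared by exact permutation over all 924 arrangements, whose smallest p is 0.00216. On simulated data for this comparison (12432 genes, 200 changed), 64.0% of genes changed by 0.3 and 95.0% of those changed by 0.5 on the log2 scale were recovered. The simulated noise was independent between embryos, and fewer genes were changed than the 1737 called in the data. Changes below 0.3, such as the median of 0.12 over the 45 genes, were not simulated. The members, roles, pathway list and alternatives were chosen with earlier results of these data known. Values by embryo are given for called members, catalytic subunits, Psma7, Psma8, Psmd14 and Psmc3ip, and of each pathway subgroup at most 4 genes by smallest p. Psmd1, Psmd11, Psmg4 and Nfe2l1 were added after their values were seen. Transcript lengths are those of the longest coding transcript in GENCODE M21 (build GRCm38), used only by symbol.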

Additional observations from a re-analysis of the deposited data

Results flagged for a closer look

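In 90 groups of 6 embryos (45 genes in 2 diets), 1 embryo lay far from the others in 4 groups, where chance gives about 1 in 20. Withdrawn replicate 5 was the high value in 3 of them: Psmb4 at 10.19 with the next at 9.77, Psmd11 at 10.04 with the next at 9.78, and Psmd13 at 10.57 with the next at 10.29. Withdrawn replicate 1 was low for Psmd9, at 7.12 with the next at 7.39.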

How the results depend on the processing

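The direction of all 11 called genes held in all 28 alternatives, and the median over the 45 genes stayed between 0.09 and 0.15. With other filters, no variance trend, the replicate block and the exact test, the fold changes equal those of the reported fit. Their direction could not change there, and the other alternatives reuse the same embryos. The counts did not hold as well. Beside each count stands the share of all genes called higher in the same fit. The 10 genes called higher (6.22%) were 5 with a random effect for embryos sharing diet and title number (3.18%). They were 1 with the values of such embryos averaged (Psme2, 0.885%) and 0 with the somatic covariate (0.121%). Without title number 1 there were 4 (2.61%), and without title number 4 there were 0 (0.0724%). The exact test per gene gave 3 (2.15%), which are the genes without overlap. An exact p of 0.00433, as for Psma5, already had an adjusted p of 0.0598 over all genes. Leaving out 1 embryo gave 5 to 13 higher (2.94% to 8.32%) and 0 to 1 lower, where 443 to 1281 of all genes were called lower. The 1 gene called lower was 0 with median centring, quantile normalization, no variance trend, the random effect, averaging, the somatic covariate, the exact test and without title number 1 or 4, and it was 2 once the trend on length and GC was removed. Over all genes, 1737 were called, and 886 with the random effect, 298 averaged, 50 with the somatic covariate, 558 by the exact test, 729 without title number 1, 49 without title number 4, 808 without supplied replicate 5 and 1133 without supplied replicate 6.

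Title numbers occur in both diets, but the labels do not say what they mark. Across the diets, deviations of embryos with the same number correlated between -0.23 and 0.24 over 10 pairs. Those of other pairs correlated between -0.36 and 0.28. The numbers were not taken to pair embryos, but ranges that overlap cannot tell whether a number marks a shared block. Embryos with the same diet and number were not compared in this way. With the number as a replicate block, 14 of the 45 genes were higher and 1 lower. In that fit 973 of all genes (7.83%) were higher and 1089 lower.

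Psma8 minus Psma7 was -0.42 without title number 1, -0.34 without title number 4 and -0.38 with embryos averaged. The exact permutation p was 0.0857 in each, with adjusted p = 0.214, 0.257 and 0.257. With 4 embryos or means against 4 the smallest p is 0.0286, or 0.0857 for a lone pair once adjusted. The pair alone could not have passed there, but its p also lay above that smallest value. The difference was -0.42 without title number 3 (exact permutation, adjusted p = 0.0714, cause not tested) and -0.46 to -0.31 with 1 embryo left out. Fold changes near 0 changed sign: Psmb6 was -0.0012 with quantile normalization and -0.0056 without the length and GC trend, Psmd14 was -0.0049 and -0.027 in the same settings and -0.021 with the somatic covariate, and Psmc3ip was 0.000038 with median centring, 0.058 with the somatic covariate, 0.010 without title number 1 and 0.0028 without title number 2. With 1 embryo left out, Psmb6 went from -0.0041 to 0.084, Psmd14 from -0.017 to 0.044 and Psmc3ip from -0.070 to 0.013.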
